A study of Homo sapiens with 6 samples.

Results

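The genes described here encode the vacuolar H+-ATPase (V-ATPase), the proton pump of lysosomes, and the protein complexes that recruit and control the growth kinase complex mTORC1 at the lysosomal surface. They were taken by symbol from the protein-coding rows of the deposited expression table. Symbols that begin with ATP6V or ATP6AP were taken, and with them TCIRG1, the LAMTOR, RRAG, FLCN and FNIP genes, 4 genes of mTORC1, TSC1, TSC2, RHEB and 6 genes of the GATOR complexes. The rule found 52 genes among 60623. RNA-seq was done in cells labelled Huh7, an established human liver cancer line, with 3 SRSF10 knockdown libraries and 3 control libraries. The knockdown libraries carry the genotype label SRSF10 knockdown, and the series title points to a short hairpin RNA against SRSF10, an SR-family regulator of splicing. The control libraries carry the genotype label WT, and their titles begin with NC. No label states if a control hairpin was used in them, so effects of a hairpin or its delivery and those of lower SRSF10 cannot be told apart.

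The V-ATPase joins a cytosolic V1 sector, which hydrolyses ATP, to a membrane V0 sector, through which protons move into the lumen. On the lysosomal surface the pump and the Ragulator complex hold the Rag GTPases, which bind mTORC1 when amino acids are plentiful, and RHEB then activates the kinase. Folliculin with its FNIP partners acts on the RagC and RagD side, the GATOR complexes act on the RagA and RagB side, and the TSC complex holds RHEB back. In liver cells this machinery links lysosomal digestion and nutrient supply to growth and autophagy. Many lysosomal genes carry the E-box CACGTG in their promoters, the core of the site bound by TFEB and TFE3, whose entry into the nucleus is held back by mTORC1.

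Of the 52 genes, 38 were matched in a RefSeq promoter table (GRCh38.p14), and the 250 bases before each of their listed transcription starts were searched for CACGTG, a motif that reads the same on both strands. A gene was counted if any of its listed promoters held the motif. It was found in 10 of the 38 genes (26.3%) and in 2110 of the 27305 genes of the whole table (7.73%). The 38 genes are protein-coding by the rule. The whole table was not matched to them by gene type, expression or base composition, so the shares come from unlike sets. The longer form TCACGTGA, which contains CACGTG, was found in 4 of the 38 genes (10.5%) and in 283 genes of the table (1.04%). Its 4 holders were ATP6V1G1, ATP6V0D1, RRAGB and TSC2. Matches are descriptions of the sequence and not binding sites. Below are 4 promoters in lower case, with CACGTG in capitals. FNIP1 (chr5:131797018-131797267, minus strand) is shown as the only promoter with the motif among the 7 matched genes that were higher in the knockdown. ATP6V1G1 (chr9:114587519-114587768, plus strand) is shown as one that holds the longer form and whose level differed little between the groups. ATP6V0A1 (chr17:42458628-42458877, plus strand) and MTOR (chr1:11262552-11262801, minus strand) are shown as a higher and a lower gene without the motif in this window.
FNIP1: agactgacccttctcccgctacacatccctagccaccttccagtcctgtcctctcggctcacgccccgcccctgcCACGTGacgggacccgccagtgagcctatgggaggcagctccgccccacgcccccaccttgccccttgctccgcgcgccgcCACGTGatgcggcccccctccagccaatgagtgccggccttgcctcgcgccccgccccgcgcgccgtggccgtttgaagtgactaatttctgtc
ATP6V1G1: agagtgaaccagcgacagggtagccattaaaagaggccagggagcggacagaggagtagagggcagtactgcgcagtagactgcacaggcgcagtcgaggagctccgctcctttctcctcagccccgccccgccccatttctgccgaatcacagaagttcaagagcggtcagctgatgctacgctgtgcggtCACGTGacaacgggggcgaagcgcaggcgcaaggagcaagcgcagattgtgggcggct
ATP6V0A1: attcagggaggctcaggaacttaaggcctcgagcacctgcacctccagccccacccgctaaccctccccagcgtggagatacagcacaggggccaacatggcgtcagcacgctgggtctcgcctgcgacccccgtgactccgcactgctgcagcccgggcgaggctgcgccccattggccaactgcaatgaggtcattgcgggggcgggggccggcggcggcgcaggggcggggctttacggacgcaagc
MTOR: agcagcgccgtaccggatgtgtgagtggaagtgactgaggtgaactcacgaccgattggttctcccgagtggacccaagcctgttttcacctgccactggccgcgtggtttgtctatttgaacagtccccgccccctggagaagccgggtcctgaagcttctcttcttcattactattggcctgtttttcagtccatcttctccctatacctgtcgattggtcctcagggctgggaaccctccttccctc
In FNIP1 the motif begins 175 and 94 bases before the start, and in ATP6V1G1 it begins 58 bases before it.

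Depth was estimated from the steps between low FPKM values (fragments scaled to gene length and to the mapped fragments of the library) at 12720000 to 14350000 fragments assigned to genes per library. The knocked-down gene SRSF10 (ENSG00000188529) lies on the minus strand of chromosome 1 (GRCh38, 23964804 to 23980927). It averaged 10.7 ± 0.119 FPKM in the knockdown and 19.3 ± 0.608 FPKM in the controls (SD, n = 3 each), and every knockdown library was below every control library. Its log2 fold change was -0.80 (SE 0.038, limma with Benjamini-Hochberg adjustment over all tested genes, adjusted p = 0.000166). An exact two-sided permutation test gave p = 0.1, the smallest that 3 libraries against 3 allow. The epithelial keratin KRT8 stood at 436 FPKM in the knockdown and 440.0 FPKM in the controls, and KRT18 at 180 FPKM and 189 FPKM. The other epithelial markers listed were low. CDH1 averaged 1.89 FPKM in the knockdown and 1.76 FPKM in the controls. EPCAM, at 0.159 FPKM in the knockdown and 0.212 FPKM in the controls, was under 1 FPKM in every library. Of 10 hepatocyte and hepatoma markers only FGB and HNF4A reached 1 FPKM in 3 libraries or more, and APOA2, TTR and GPC3 were listed at 0 in every library, while ALB and AFP were under 1 FPKM in every library. Most liver markers were therefore low or at 0 in cells labelled as a liver cancer line, and the identity of the line was not tested. The markers listed for fibroblasts (COL1A1, COL1A2 and PDGFRB) and immune cells (PTPRC, CD68 and CD3E) were under 1 FPKM in every library. The summed fibroblast markers were nevertheless higher in every knockdown library, at 0.0718 to 0.196 FPKM in the knockdown and 0.00752 to 0.0220 FPKM in the controls. Most of the knockdown sum was COL1A1, which averaged 0.106 FPKM in the knockdown and 0.00723 FPKM in the controls. PDGFRB averaged 0.00677 FPKM in the knockdown and 0.00735 FPKM in the controls. The liver markers ALB, at 0.624 FPKM in the knockdown and 0.150 FPKM in the controls, and SERPINA1, at 0.623 FPKM in the knockdown and 0.106 FPKM in the controls, were also higher in every knockdown library. Summed over the 10 liver markers the groups overlapped, at 11.5 to 13.3 FPKM in the knockdown and 10.5 to 12.8 FPKM in the controls. FGB averaged 5.12 FPKM in the knockdown and 5.13 FPKM in the controls, and HNF4A averaged 4.65 FPKM and 5.30 FPKM. The summed level of 2 endothelial markers, nearly all of it PECAM1, was 6.23 to 7.28 FPKM in the knockdown and 4.59 to 5.74 FPKM in the controls, and the part of these markers in the results was not tested. The labels do not state that the libraries of a group are separate cultures, so p-values cover the spread among these libraries alone, and that spread may be technical. In bulk RNA fewer cells of a type and less RNA per cell cannot be told apart.

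Differences among the tested genes of the group were small and went mostly upward. On the log2(FPKM + 1) scale RRAGD and the V0 gene ATP6V0C had the largest increases, and the kinase gene MTOR had the largest decrease. Of the 52 genes, 42 reached 1 FPKM in 3 libraries or more and were tested. Of these 42, 8 were higher in the knockdown (19.0%), where 12.6% of all 12191 tested genes were higher. In the other direction 2 were lower (4.76%), where 12.5% of all tested genes were lower. For 15 of the 42 all knockdown libraries lay above all control libraries (35.7%, against 20.6% of all tested genes), and for 5 all lay below (11.9%, against 22.0%). The median log2 fold change was 0.09 over the 42 genes and -0.01 over all tested genes, and 31 of the 42 were above 0 (73.8%, against 47.4% of all tested genes). The 32 genes that did not pass the threshold had log2 fold changes of -0.18 to 0.21. Added up over all 52 genes, the FPKM were 587, 605 and 615 in the knockdown libraries and 570.1, 595 and 559 in the controls, so the summed levels of the groups overlapped. Without control replicate 1, control replicate 3 or knockdown replicate 3, 5 genes were higher, and without control replicate 1, 2 or 3 or knockdown replicate 1 or 2, 1 gene was lower. Over all tested genes, leaving out 1 library gave 894 to 1352 higher and 964 to 1327 lower, in place of 1542 and 1525. The plot of fold changes by role sets out each tested gene with its interval.

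**Figure D1:**
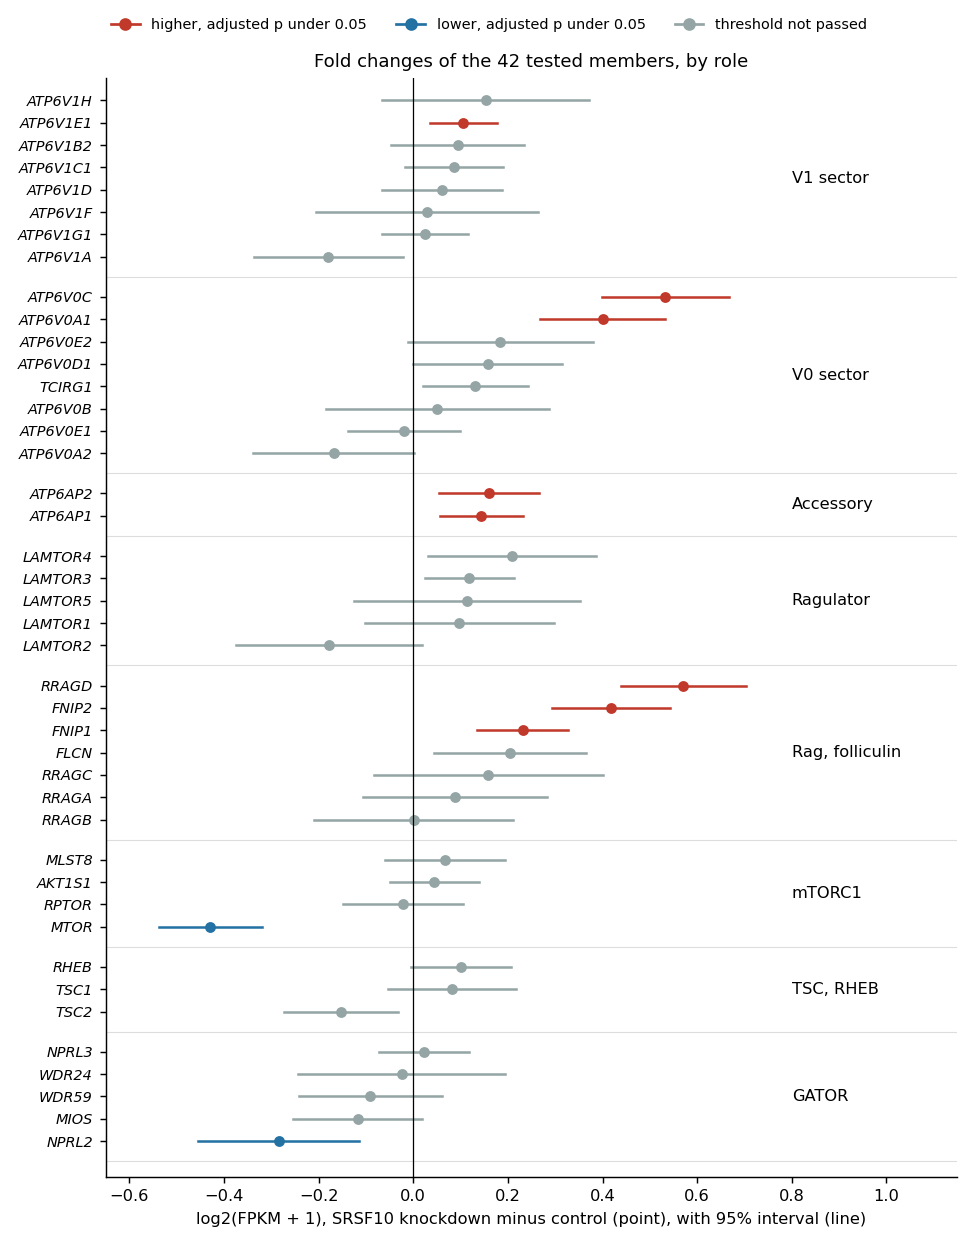
Differences of log2(FPKM + 1), SRSF10 knockdown minus control, for the 42 tested genes (points) with 95% intervals (lines), ordered by role; red points are higher and blue points lower at a limma adjusted p under 0.05, and grey points did not pass. RRAGD (0.57) and ATP6V0C (0.53) lie farthest to the right, and MTOR (-0.43) lies farthest to the left.

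In the V1 sector, the ATP-hydrolysing head, a single gene passed. Of its 13 genes 8 were tested, and 1 was higher (12.5%), about the share over all tested genes (12.6%). None was lower, where 12.5% of all tested genes were lower, and the median log2 fold change was 0.07. The higher gene was ATP6V1E1 (ENSG00000131100, chromosome 22, 17592136 to 17628818), which encodes a stalk subunit that ties the head to the membrane sector. It was at 35.9, 36.4 and 35.9 FPKM in the knockdown libraries and at 33.7, 33.8 and 32.95 FPKM in the controls. The groups did not overlap, but the means lay only 1.08-fold apart, a log2 fold change of 0.11 (SE 0.030, adjusted p = 0.041 in limma). Its processed copy ATP6V1E1P1 was at 1.20 FPKM in the knockdown and 0.469 FPKM in the controls, and how reads were divided between the copies is not known here.

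The other V1 genes did not pass. ATP6V1A, the catalytic subunit, was at 20.1, 22.2 and 22.0 FPKM in the knockdown and at 23.1, 26.8 and 23.5 FPKM in the controls. All knockdown values were the lower ones, with a log2 fold change of -0.18 (SE 0.066, adjusted p = 0.0943 in limma). ATP6V1A lies on chromosome 3, whose tested genes had a median log2 fold change of -0.19, while the medians of the other numbered chromosomes lay between -0.04 on chromosome 9 and 0.05 on chromosome 8. The log2 fold changes were 0.09 for ATP6V1B2, the noncatalytic nucleotide-binding subunit, 0.09 for ATP6V1C1, 0.06 for ATP6V1D of the central rotor, 0.03 for ATP6V1F, 0.02 for the stalk subunit ATP6V1G1 and 0.15 for the regulatory subunit ATP6V1H. The groups overlapped for each of these 6 genes. ATP6V1C1, with 44.4 FPKM in the knockdown and 41.8 FPKM in the controls, was the most abundant V1 transcript. The forms known from kidney, brain or testis were rare. ATP6V1B1, ATP6V1C2, ATP6V1G2 and ATP6V1G3 averaged under 0.1 FPKM in both groups, and ATP6V1E2 averaged 0.950 FPKM in the knockdown and 0.965 FPKM in the controls.

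**Figure D2:**
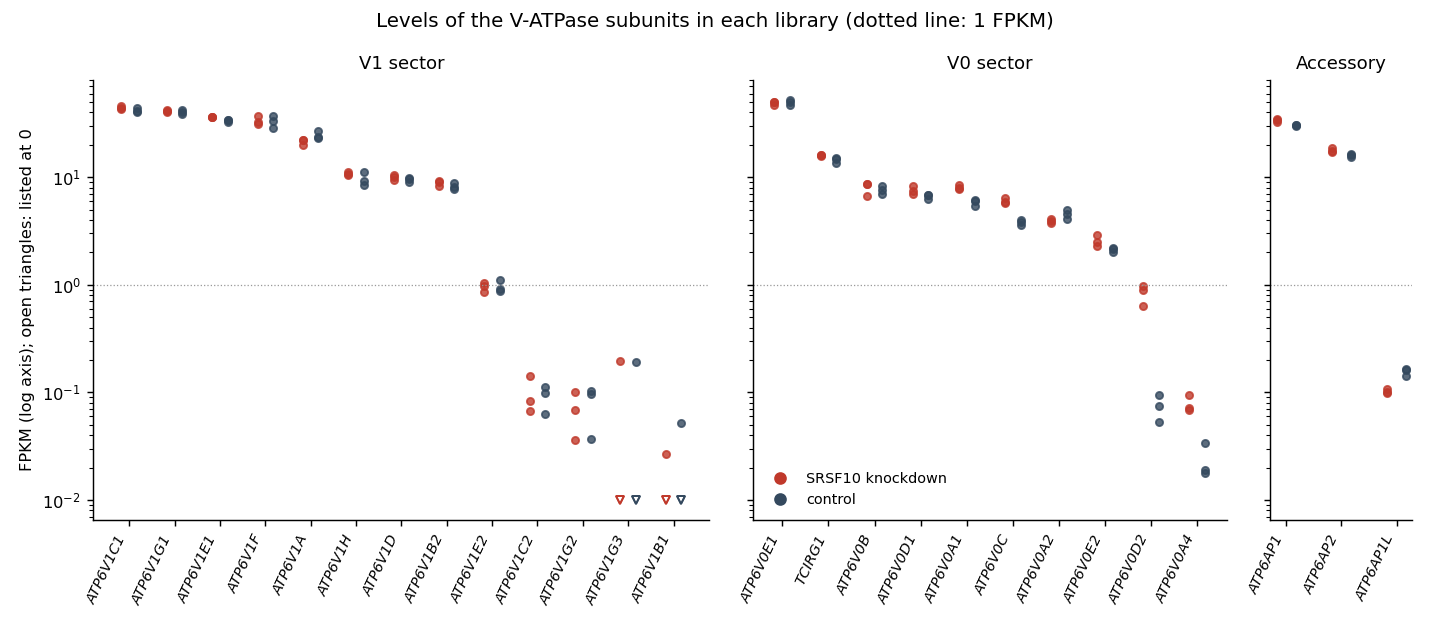
FPKM of each V-ATPase gene in each library on a log axis (red, SRSF10 knockdown; dark blue, control; open triangles, listed at 0), with a dotted line at 1 FPKM. The widely expressed subunits lie above the line with the groups close together, and ATP6V0D2 lies below it with the knockdown far above the control.

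In the V0 sector the proteolipid ATP6V0C and the a-subunit ATP6V0A1 were higher in the knockdown. Of the 10 genes of the sector 8 were tested, 2 were higher and none was lower, where 12.6% and 12.5% of all tested genes were higher and lower. The median log2 fold change was 0.14. ATP6V0C (ENSG00000185883, chromosome 16, 2513870 to 2520218) encodes the c-subunit of the rotating ring that carries the protons. It was at 6.35, 5.76 and 5.86 FPKM in the knockdown libraries and at 3.63, 3.999 and 3.86 FPKM in the controls. Every knockdown value was above every control value, with means of 5.99 ± 0.319 FPKM and 3.83 ± 0.184 FPKM (SD, n = 3 each). The ratio of means was 1.56, and the log2 fold change was 0.53 (SE 0.056, 95% interval 0.40 to 0.67, adjusted p = 0.00134 in limma). These values rest on few fragments, an estimated 133, 117 and 112 in the knockdown and 78, 76 and 78 in the controls. Of the 1498 exon bases of ATP6V0C in GENCODE release 29, 862 are shared on the same strand with AC093525.2 and 218 with AC093525.1. Both are listed at 0 in every library, and how shared reads were assigned is not known here.

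ATP6V0A1 (ENSG00000033627, chromosome 17, 42458844 to 42522611) encodes a form of the a-subunit, which lines the proton path and helps place the pump in the cell. It was at 8.42, 7.84 and 8.01 FPKM in the knockdown libraries and at 6.04, 6.17 and 5.46 FPKM in the controls. The groups were clearly apart, with a log2 fold change of 0.40 (SE 0.056, 95% interval 0.27 to 0.53, adjusted p = 0.0036 in limma). The other forms of the same subunit did not pass. ATP6V0A2, a form known from the Golgi, was at 3.77, 3.92 and 4.12 FPKM in the knockdown and at 4.58, 4.09 and 4.99 FPKM in the controls, a log2 fold change of -0.17 (SE 0.072, adjusted p = 0.137 in limma). Its groups overlapped. TCIRG1, the a3 form of lysosomes and bone-resorbing cells, averaged 16.1 ± 0.186 FPKM in the knockdown and 14.6 ± 0.815 FPKM in the controls (SD, n = 3 each), with a log2 fold change of 0.13 (SE 0.047, adjusted p = 0.0843 in limma). TCIRG1 was the most abundant a-subunit transcript in both groups.

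Because the a-forms replace each other in the pump, each was also expressed as a share of the summed a-subunit FPKM. ATP6V0A1 made up 29.7%, 28.3% and 28.2% in the knockdown and 23.7%, 24.2% and 22.6% in the controls, a difference of 5.23 percentage points. ATP6V0A2 made up 13.3%, 14.2% and 14.5% in the knockdown and 17.9%, 16.0% and 20.7% in the controls, a difference of -4.25 points. For both forms the groups did not overlap, while the share of TCIRG1, 57.0% ± 0.211 in the knockdown and 58.2% ± 1.52 in the controls (SD, n = 3 each), overlapped between them. The exact two-sided permutation p was 0.1 for both forms, the smallest possible, and 0.25 after Benjamini-Hochberg adjustment over the 15 shares tested. No share can pass a threshold of 0.05 in a design of this size.

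**Figure D3:**
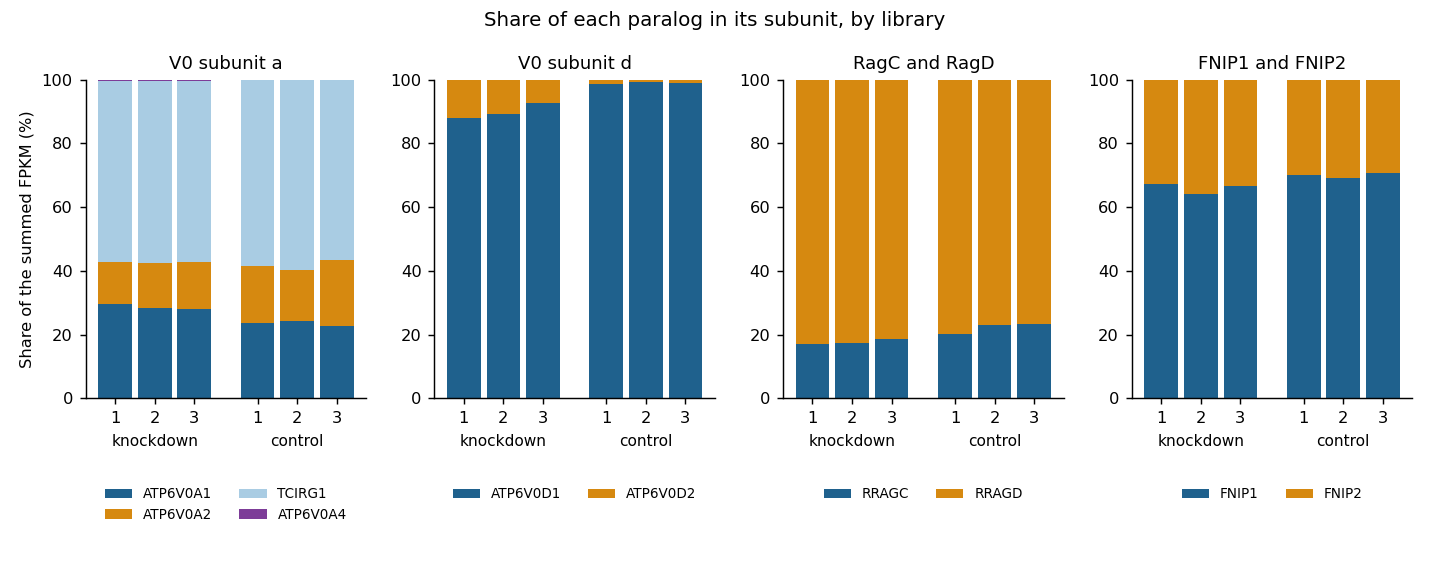
Share of each paralog in the summed FPKM of its subunit (%), as a stacked bar for each library, with SRSF10 knockdown replicates on the left and control replicates on the right of each panel. The segments of ATP6V0A1, ATP6V0D2, RRAGD and FNIP2 are taller in all 3 knockdown bars than in any control bar.

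ATP6V0D2 (ENSG00000147614, chromosome 8) showed the largest ratio in the group at a very low level. It encodes a d-subunit best known from osteoclasts, kidney and macrophages, and stands beside the widely expressed ATP6V0D1. It was at 0.972, 0.899 and 0.639 FPKM in the knockdown libraries and at 0.0946, 0.0535 and 0.0753 FPKM in the controls. All knockdown values were several times every control value, yet all were under 1 FPKM, so ATP6V0D2 was not among the tested genes. The estimated fragments summed to 103 in the knockdown and 9 in the controls, a depth-scaled ratio of 11.5 with an exact 95% interval of 5.84 to 25.9 that covers counting error only. Leaving out any 1 library gave ratios of 10.2 to 13.4. In a fit without the filter, in which 3.51% of all genes were higher, the log2 fold change was 0.77 (adjusted p = 0.0116 in limma). ATP6V0D2 made up 12.1%, 10.8% and 7.15% of the d-subunit FPKM in the knockdown and 1.36%, 0.770% and 1.18% in the controls, also without overlap (exact two-sided permutation p = 0.1, adjusted p = 0.25). Of 4 markers of osteoclasts and kidney intercalated cells, FOXI1 and SLC4A1 were listed at 0 in every library. ACP5 averaged 1.38 FPKM in the knockdown and 0.421 FPKM in the controls, and CTSK averaged 2.45 FPKM in the knockdown and 1.85 FPKM in the controls. The summed level of the 4 was 3.53 to 4.01 FPKM in the knockdown and 1.94 to 2.84 FPKM in the controls, and its part in the ATP6V0D2 result was not tested. The low-level differences in COL1A1, ALB and SERPINA1 given above go the same way, while PDGFRB did not and the summed liver markers overlapped. The part of these markers was not tested either.

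The remaining V0 genes did not pass. ATP6V0D1 was at 7.03, 7.40 and 8.29 FPKM in the knockdown and at 6.84, 6.90 and 6.30 FPKM in the controls, without overlap, and its log2 fold change was 0.16 (SE 0.066, adjusted p = 0.133 in limma). The log2 fold change was 0.05 for the proteolipid ATP6V0B and 0.18 for the e-subunit ATP6V0E2. ATP6V0E1, the most abundant V0 transcript, averaged 49.3 FPKM in the knockdown and 50.05 FPKM in the controls, a log2 fold change of -0.02. ATP6V0A4, the a4 form of kidney, was rare, at 0.0693, 0.0712 and 0.0949 FPKM in the knockdown and at 0.0337, 0.0191 and 0.0179 FPKM in the controls. Its share of the a-subunit FPKM was 0.244%, 0.257% and 0.334% in the knockdown and 0.132%, 0.0748% and 0.0742% in the controls. Both its level and its share were higher in every knockdown library (exact two-sided permutation p = 0.1 for the share, adjusted p = 0.25), but they rest on 13 estimated fragments in the knockdown and 4 in the controls.

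Both tested accessory genes of the pump were higher by a small amount, where 12.6% of all tested genes were higher. ATP6AP1 (ENSG00000071553, chromosome X, 154428632 to 154436516), which assists assembly of V0, was at 33.9, 32.4 and 34.9 FPKM in the knockdown and at 30.5, 30.5 and 30.2 FPKM in the controls. The groups did not overlap, and the log2 fold change was 0.14 (SE 0.037, adjusted p = 0.0306 in limma). ATP6AP2 (ENSG00000182220, chromosome X, 40579372 to 40606848), also called the prorenin receptor, was at 17.7, 17.2 and 18.7 FPKM in the knockdown and at 16.1, 16.3 and 15.3 FPKM in the controls. Here too the groups were apart, with a log2 fold change of 0.16 (SE 0.044, adjusted p = 0.0392 in limma). Under 15 alternative settings ATP6AP1 passed in 7, and ATP6AP2 and ATP6V1E1 passed in 6 each. The calls of ATP6AP2 and ATP6V1E1 were lost without any 1 of the 6 libraries, and that of ATP6AP1 was lost without any 1 library other than knockdown replicate 2, with adjusted p of up to 0.122 for ATP6AP2, 0.136 for ATP6V1E1 and 0.105 for ATP6AP1 (limma). ATP6AP1L, a relative of ATP6AP1, averaged 0.103 FPKM in the knockdown and 0.157 FPKM in the controls. ATP6V1FNB, matched by its symbol alone and no known subunit of the pump, averaged 0.477 FPKM in the knockdown and 0.179 FPKM in the controls.

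The 5 Ragulator genes, LAMTOR1 to LAMTOR5, encode the scaffold that anchors the Rag GTPases. All were tested and none passed, where 12.6% of all tested genes were higher and 12.5% lower. The log2 fold changes of the 5 genes had a median of 0.11 and lay between -0.18 for LAMTOR2 and 0.21 for LAMTOR4. LAMTOR3 was at 7.85, 7.99 and 8.16 FPKM in the knockdown and at 7.20, 7.44 and 7.23 FPKM in the controls, a small separation without overlap (log2 fold change 0.12, SE 0.040, adjusted p = 0.0698 in limma). LAMTOR2 was at 19.1, 23.3 and 24.1 FPKM in the knockdown and at 25.4, 25.3 and 24.4 FPKM in the controls. Its knockdown values were the lower ones and spread more widely (log2 fold change -0.18, SE 0.083, adjusted p = 0.168 in limma).

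Among the Rag and folliculin genes RRAGD, FNIP2 and FNIP1 were higher. Of 7 tested genes 3 were higher, where 12.6% of all tested genes were higher, and none was lower, where 12.5% were lower. All 7 fold changes were above 0, against 47.4% of all tested genes, and the median log2 fold change was 0.20. The summed FPKM of the 7 genes was 54.8, 53.7 and 55.4 in the knockdown libraries and 42.8, 45.2 and 45.1 in the controls. RRAGD (ENSG00000025039, chromosome 6, 89364636 to 89412270) encodes RagD, a GTPase that pairs with RagA or RagB to bind mTORC1. It was at 15.8, 15.3 and 16.0 FPKM in the knockdown libraries and at 9.40, 10.8 and 10.5 FPKM in the controls. All 3 knockdown values lay well above the controls, with means of 15.7 ± 0.360 FPKM and 10.2 ± 0.735 FPKM (SD, n = 3 each) and a ratio of 1.53. The log2 fold change was 0.57 (SE 0.055, 95% interval 0.44 to 0.70, adjusted p = 0.00102 in limma).

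RRAGC, the close relative of RRAGD, was at 3.22, 3.22 and 3.66 FPKM in the knockdown and at 2.37, 3.21 and 3.20 FPKM in the controls. The groups did not overlap, though by a narrow margin, and the log2 fold change was 0.16 (SE 0.102, adjusted p = 0.307 in limma). RRAGD was the main transcript of the pair and made up 83.0%, 82.6% and 81.4% of their summed FPKM in the knockdown and 79.9%, 77.1% and 76.6% in the controls. The knockdown shares were all higher, by 4.46 percentage points on average (exact two-sided permutation p = 0.1, adjusted p = 0.25). RRAGA and RRAGB, which encode the partners RagA and RagB, had log2 fold changes of 0.09 and 0.00, and their shares overlapped between the groups.

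FNIP2 and FNIP1, the alternative partners of folliculin in the complex that acts on RagC and RagD, were both higher. FNIP2 (ENSG00000052795, chromosome 4, 158769138 to 158908049) was at 5.02, 5.51 and 5.23 FPKM in the knockdown libraries and at 3.58, 3.82 and 3.64 FPKM in the controls. The groups did not overlap, and the ratio of means was 1.43, a log2 fold change of 0.42 (SE 0.053, 95% interval 0.29 to 0.54, adjusted p = 0.00255 in limma). FNIP1 (ENSG00000217128, chromosome 5, 131641714 to 131797063) was at 10.3, 9.90 and 10.5 FPKM in the knockdown and at 8.43, 8.55 and 8.74 FPKM in the controls. It too was higher in every knockdown library, with a log2 fold change of 0.23 (SE 0.041, 95% interval 0.14 to 0.33, adjusted p = 0.00791 in limma). FNIP2 made up 32.7%, 35.8% and 33.2% of the pair in the knockdown and 29.8%, 30.9% and 29.4% in the controls. These shares did not overlap and differed by 3.88 points (exact two-sided permutation p = 0.1, adjusted p = 0.25). FLCN, which encodes folliculin itself, was at 4.23, 4.20 and 3.95 FPKM in the knockdown and at 3.49, 3.76 and 3.12 FPKM in the controls. Its groups did not overlap either, but the log2 fold change of 0.20 did not pass (SE 0.068, adjusted p = 0.0685 in limma).

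**Figure D4:**
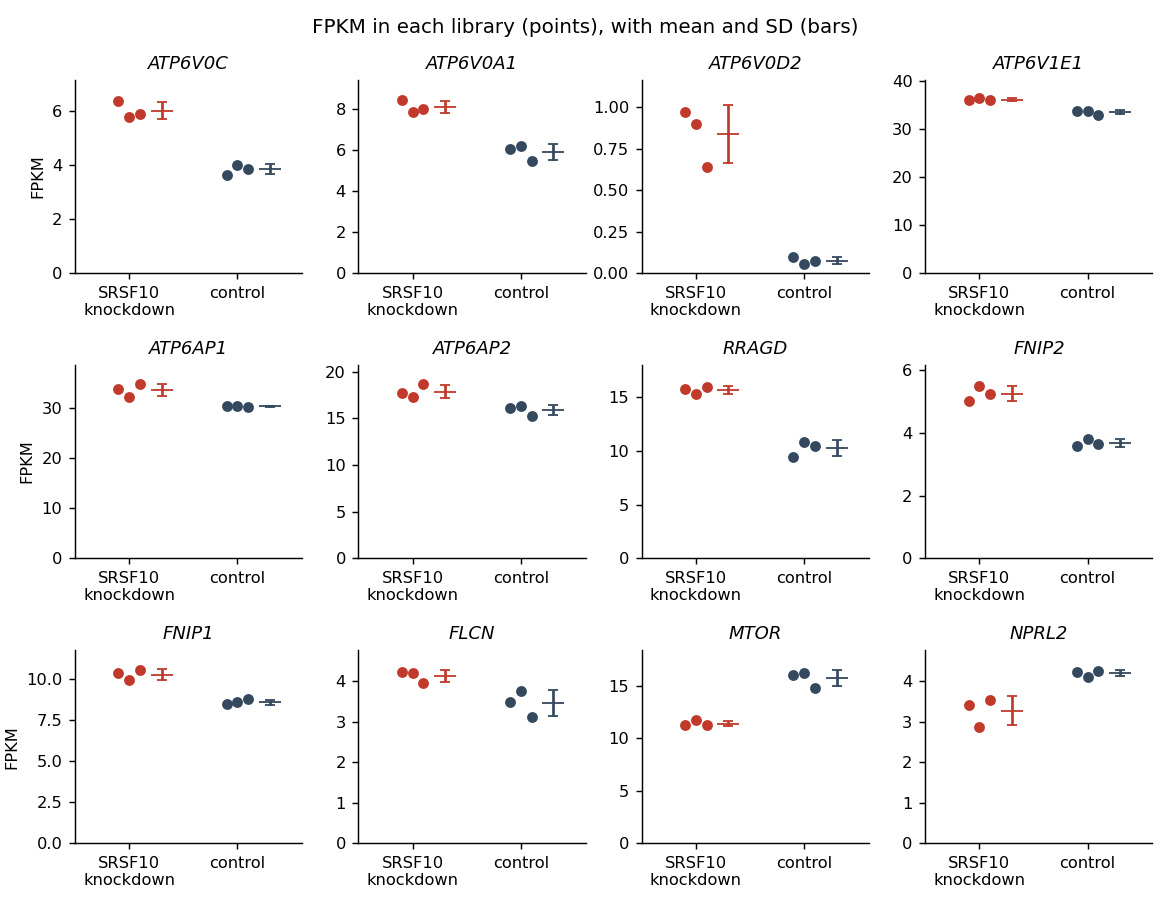
FPKM of 12 genes in each SRSF10 knockdown (red, left) and control (dark blue, right) library as points, with the mean and SD as bars; each axis starts at 0. The panels are a selection, the 10 genes past the threshold with ATP6V0D2 and FLCN. In each panel the 3 knockdown points lie apart from the 3 control points, above them in 10 panels and below them for MTOR and NPRL2. Of all tested genes, 20.6% had all knockdown values above the controls and 22.0% had all below.

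MTOR (ENSG00000198793, chromosome 1, 11106535 to 11262507), the kinase at the centre of mTORC1 and mTORC2, had the largest decrease of the tested genes of the group. It was at 11.3, 11.7 and 11.3 FPKM in the knockdown libraries and at 16.1, 16.2 and 14.8 FPKM in the controls. Every knockdown value was below every control value, with means of 11.4 ± 0.267 FPKM and 15.7 ± 0.760 FPKM (SD, n = 3 each), a ratio of 0.726. The log2 fold change was -0.43 (SE 0.046, 95% interval -0.54 to -0.32, adjusted p = 0.0014 in limma). The median log2 fold change of tested genes on chromosome 1 was -0.01. MTOR shares 220 of its 12119 exon bases with MTOR-AS1 on the opposite strand, which averaged 0.0624 FPKM in the knockdown and 0.163 FPKM in the controls. Of the 4 mTORC1 genes taken by the rule 1 was lower and none higher, where 12.5% and 12.6% of all tested genes were lower and higher. The other 3 did not pass. The log2 fold change was -0.02 for RPTOR, the substrate-binding subunit, 0.07 for MLST8, a stabilising subunit, and 0.04 for AKT1S1, an inhibitory subunit, and the groups overlapped for each.

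TSC1, TSC2 and RHEB did not pass, where 12.6% of all tested genes were higher and 12.5% lower. TSC2, which inactivates RHEB, was at 3.88, 3.54 and 3.65 FPKM in the knockdown and at 4.23, 4.20 and 4.20 FPKM in the controls. Its knockdown values were all lower, with a log2 fold change of -0.15 (SE 0.051, adjusted p = 0.0686 in limma). RHEB, the GTPase that activates mTORC1, averaged 39.8 ± 0.916 FPKM in the knockdown and 37.0 ± 1.89 FPKM in the controls (SD, n = 3 each), a log2 fold change of 0.10 (adjusted p = 0.147 in limma). Its copy RHEBP2 was listed at 58.8 FPKM in the knockdown and 55.9 FPKM in the controls, so the division of reads between the copies leaves the level of RHEB uncertain.

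Of 5 tested GATOR genes 1 was lower and none higher, where 12.5% and 12.6% of all tested genes were lower and higher. The lower gene was NPRL2. It encodes a subunit of GATOR1, which inactivates RagA and RagB when amino acids are scarce. NPRL2 (ENSG00000114388, chromosome 3, 50347330 to 50351091) was at 3.41, 2.86 and 3.53 FPKM in the knockdown libraries and at 4.22, 4.10 and 4.24 FPKM in the controls. The groups did not overlap, and the log2 fold change was -0.28 (SE 0.072, 95% interval -0.45 to -0.11, adjusted p = 0.0288 in limma). Relative to the chromosome 3 median of -0.19 the difference was -0.09. The call was lost without the filter on low values (adjusted p = 0.0836 in limma) and without control replicate 1, 2 or 3 or knockdown replicate 1 or 2 (adjusted p of up to 0.0792). NPRL2 also shares 397 of its 3677 exon bases with CYB561D2 on the opposite strand, which is listed at 0. NPRL3, its GATOR1 partner, had a log2 fold change of 0.02. MIOS, WDR24 and WDR59, subunits of GATOR2, which opposes GATOR1, had -0.12, -0.02 and -0.09 on the same scale, and none of these 4 passed. DEPDC5, the remaining GATOR1 subunit here, was too low to be tested, at 0.326 ± 0.0124 FPKM in the knockdown and 0.439 ± 0.0332 FPKM in the controls (SD, n = 3 each). In the fit without the filter, in which 3.14% of all genes were lower, its adjusted p was 0.442 (limma). Its estimated fragments, 227 in the knockdown and 310 in the controls, gave a ratio of 0.738 with an exact counting interval of 0.619 to 0.879.

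The fold changes of genes with and without CACGTG in the promoter window covered overlapping ranges. Of the 10 with the motif all were tested, FNIP1 was higher, none was lower, and log2 fold changes ran from -0.15 to 0.23 with a median of 0.13. Of the 28 without it 22 were tested, 6 were higher and 2 lower, and log2 fold changes ran from -0.43 to 0.53 with a median of 0.09. RRAGD, the gene with the largest increase on this scale, was not matched in the promoter table and belongs to neither class. Over all tested genes 12.6% were higher and 12.5% lower. ATP6V1G1, whose promoter is printed above with the longer form, had a log2 fold change of 0.02 (adjusted p = 0.68 in limma).

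Other genes of the pathway were also higher more often than lower. Of 41 further genes that sense nutrients, assemble the pump, balance lysosomal ions or carry the output of mTORC1, 35 were tested, 9 were higher (25.7%, where 12.6% of all tested genes were higher) and none was lower, where 12.5% of all tested genes were lower. DDIT4, a stress-induced inhibitor of mTORC1, had the largest change, at 4.17, 7.44 and 5.83 FPKM in the knockdown and at 2.44, 2.26 and 1.58 FPKM in the controls. The knockdown values were widely spread but all above the controls, with a log2 fold change of 1.12 (SE 0.189, adjusted p = 0.00694 in limma). In the same arm RHEBL1, a relative of RHEB, rose by 0.45 on the log2 scale, and BMT2, a sensor of S-adenosylmethionine, by 0.26 (adjusted p = 0.0338 and 0.0351 in limma). TPCN1, an endolysosomal cation channel, averaged 19.6 ± 0.877 FPKM in the knockdown and 15.5 ± 0.603 FPKM in the controls, and OSTM1, the partner of the chloride transporter CLCN7, averaged 12.004 ± 0.688 FPKM in the knockdown and 9.85 ± 0.133 FPKM in the controls (SD, n = 3 each; adjusted p = 0.00408 and 0.00973 in limma). NCOA7, whose product binds the V-ATPase, rose by 0.25 on the log2 scale (adjusted p = 0.00694 in limma). It was the only higher gene of the 8 tested for pump assembly (12.5%), about the share over all tested genes. The median log2 fold change of these 8 genes was -0.04. Of the output genes, EIF4EBP2, a translational repressor that mTORC1 phosphorylates, rose by 0.21, and the autophagy kinase gene ULK1 rose by 0.41 (adjusted p = 0.014 and 0.0024 in limma). TFE3 averaged 35.6 ± 0.340 FPKM in the knockdown and 30.7 ± 1.96 FPKM in the controls, a log2 fold change of 0.21 (SD, n = 3 each; adjusted p = 0.0214 in limma). The call of RHEBL1 and that of BMT2 were each lost without any 1 library other than control replicate 1 (adjusted p of up to 0.102 and 0.104), and so was that of TFE3 (up to 0.0701). Without the filter on low values all of these calls were lost too, with an adjusted p of 0.109 for RHEBL1, 0.0973 for BMT2 and 0.0594 for TFE3 (limma), and 6 of the further genes were higher. The call of EIF4EBP2 was lost without knockdown replicate 3 (adjusted p = 0.0556 in limma). TFEB and MITF, the relatives of TFE3, were under 1 FPKM in every library.

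Of the 10 genes that passed, 6 kept their calls under every setting tried. RRAGD, ATP6V0C, FNIP2, ATP6V0A1, FNIP1 and MTOR were past the threshold under all 15 alternative settings, with adjusted p of at most 0.0371, the value of FNIP1 (limma). All 10 kept their direction wherever they could be tested. The plot of the alternatives shows both groups of genes.

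**Figure D5:**
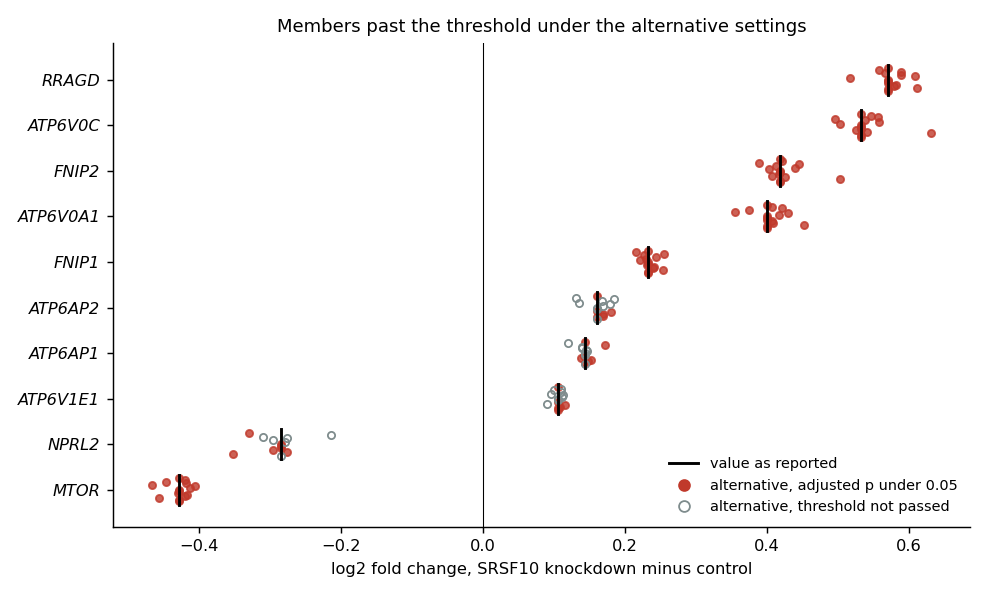
Differences of log2(FPKM + 1) or its variants, SRSF10 knockdown minus control, for the 10 genes past the threshold: black bars are the reported values, filled points are alternative settings with a limma adjusted p under 0.05 and open points are settings without it. RRAGD, ATP6V0C, FNIP2, ATP6V0A1, FNIP1 and MTOR have filled points only, and ATP6AP2, ATP6AP1, ATP6V1E1 and NPRL2 have both kinds.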

How the data were processed

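RNA-seq was done on 6 libraries of cells labelled Huh7. The submitters' processing notes name GRCh38 as the build and list Trim Galore 0.6.5-1 and FastQC 0.11.9. For the aligner, counter, annotation and strand setting, nothing is given in the sources used here. Values were deposited by the authors as FPKM, identical in the series table and in the file of each sample, and no counts, so the count test that had been planned was not used.

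Genes that reached 1 FPKM in 3 libraries or more were tested on log2(FPKM + 1) in R 4.3.3 with limma 3.58.1, using its mean-expression trend and Benjamini-Hochberg adjustment over all 12191 genes (threshold 0.05). Fold changes on this scale understate the change of low genes, and a gene can pass the filter through 1 group alone. FPKM are shares of a total, of which mitochondrially encoded genes made up 27.5% to 29.7%. Positions and exon overlaps come from GENCODE release 29. Exons of 33 of the 52 genes overlap those of another gene, some on the same strand and some on the opposite strand. Neither the counter nor the strand setting is known, so how such reads were assigned is not known. A strand setting would bear on overlaps of the opposite strand only.

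Depth was estimated by finding the total at which low FPKM give whole fragments, and 86.4% to 87.1% of values of up to 6.5 fragments then lay within 0.05 of a whole number. Tested genes of the group had 76 to 3545 estimated fragments per library, with a median coefficient of variation of 4.57% in the knockdown and 5.29% in the controls. Fragment intervals cover counting error only. The steps were tested on simulated libraries, with a spread that was set and not estimated from the data. Of tested genes with log2 changes of -0.5 and 0.5, 62.5% and 68.0% were called, with median estimates of -0.42 and 0.45. For changes of -1 and 1 the shares were 81.6% and 94.0%, and 8 unchanged genes were called. Smaller changes, such as those of most genes of the group, were not simulated. SciPy 1.17.1 ran the exact tests.

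The genes, lists and markers were chosen with earlier results of these data known, so no test over a list was made. Every gene of the group may be named; those past the threshold or with a separated paralog share are given in every library, and of the further pathway genes those past the threshold are named. The other further genes are given as counts. Alternatives were no filter, a filter of 5 FPKM, a pseudocount of 0.1, quantile normalization, median-of-ratios scaling, leaving mitochondrial genes out of the scaling, no trend, a replicate block, leaving out each library and, chosen after seeing the data, leaving out chromosome 3.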

Additional observations from a re-analysis of the deposited data

How the results depend on the processing

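Without the trend, and with the replicate block, 5 of the 42 tested genes were higher in place of 8, and leaving out 1 library gave 5 to 6. The genes of the group that were lost were among ATP6V1E1, ATP6AP1 and ATP6AP2. Of all 12191 tested genes, 1482 were higher without the trend and 1193 with the block, in place of 1542. With no filter, with a filter of 5 FPKM and without the genes of chromosome 3 (chosen after seeing the data), 1 gene was lower in place of 2, and leaving out 1 library gave 1 to 2; NPRL2 was the gene lost or not testable. No label states that libraries of the same replicate number are paired. Correlations of deviations between libraries of the same number were 0.0156, 0.057 and -0.0715. Between libraries of different numbers they ran from -0.149 to 0.129. With 3 libraries per group these values cannot decide if the libraries were paired. The block changed no other call of the group. Over all genes, leaving out 1 library gave 894 to 1352 higher and 964 to 1327 lower genes, in place of 1542 and 1525, and no filter gave 1013 lower. The counts without knockdown replicate 1, 2 or 3 were 952, 943 and 894 higher and 1015, 982 and 964 lower. Of the further pathway genes, 5 to 10 were higher without 1 library (5 without knockdown replicate 3), in place of 9. SEH1L was lower with a filter of 5 FPKM (1 gene in place of 0), and leaving out 1 library gave 0 to 1 (SEH1L, RPS6KB1 and CASTOR2 without control replicates 1, 2 and 3). Of the genes that did not pass, ATP6V1H passed without control replicate 2 (adjusted p = 0.0251 in limma), LAMTOR4 without knockdown replicate 1 (adjusted p = 0.0426 in limma) and TSC2 with quantile normalization (adjusted p = 0.0495 in limma). Leaving out 1 library turned the sign of some values near 0. Log2 fold changes ran from -0.0601 to 0.114 for ATP6V1F, -0.0020 to 0.156 for ATP6V0B, -0.0613 to 0.0152 for ATP6V0E1, -0.0758 to 0.0574 for RRAGB, -0.0578 to 0.0098 for RPTOR and -0.106 to 0.0517 for WDR24. Share differences, in percentage points, ran from -0.214 to 0.107 for ATP6V1B1, -0.0412 to 0.0501 for ATP6V1C1, -0.152 to 0.22 for ATP6V1G1, -0.0805 to 0.0114 for ATP6V1G2, -0.151 to 0.162 for ATP6V1G3 and -0.181 to 4.72 for RRAGA. The causes of these changes were not tested. A count test was not run, since the files hold no counts. Depth limits ATP6V0C and the untested genes most.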
